A study of Homo sapiens with 8 samples.

Results

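PRAME and 9 X-linked cancer-testis antigens, MAGEA1, MAGEA3, MAGEA4, MAGEA6, MAGEA12, MAGEC1, MAGEC2, CTAG2 and SSX1, were followed by symbol through RNA-seq of uveal melanoma cells, and all 10 were found among the 19952 symbols listed. The expression of 5 of these genes was detected in 92.1 cells, and none was detected in MEL290 cells. Levels are given in FPKM, the number of sequenced fragments assigned to a gene, corrected for the length of its transcripts and for library size. The 8 libraries comprised 4 groups of 2. In 92.1 cells, a line from a primary uveal melanoma, lentiviral control vector (shCtrl) was compared with shRNA against APOBEC3B (shA3B), a cytidine deaminase that edits single-stranded DNA. In MEL290 cells, also described as uveal melanoma, a negative control (NC) was compared with lentiviral overexpression of APOBEC3B (A3B OE). All cells had been selected with puromycin, the control vector was described as empty, and the labels do not state which shRNA sequence was used or whether replicates were separate cultures. P-values therefore measure the spread between these libraries, which may be technical.

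Cancer-testis antigens are genes whose expression is normally limited largely to germ cells and placenta and which are switched on in many tumors, where their peptides can be recognized by T cells. Their promoters are kept silent in somatic cells mainly by DNA methylation. PRAME, a leucine-rich repeat protein that serves as a substrate receptor of a CUL2 ubiquitin ligase and has been described as a repressor of retinoic acid receptor signaling, is used as a marker of metastatic risk in uveal melanoma. MAGE proteins bind RING ubiquitin ligases, MAGEA3, MAGEA6 and MAGEC2 among them binding TRIM28, while SSX1 is a transcriptional corepressor known from its fusion to SS18 in synovial sarcoma.

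To show what the detected members share in sequence, and how undetected members compare, the 120 bases before the annotated gene start are given for 4 detected and 2 undetected genes, taken from RefSeq (GRCh38.p14) and read 5′ to 3′ in the direction of transcription. Capitals mark CG dinucleotides, the sites of DNA methylation. The stretches lie at chr22:22559362-22559481 (minus strand), chrX:152698647-152698766 (plus), chrX:152733637-152733756 (plus), chrX:48255272-48255391 (plus), chrX:151912375-151912494 (plus) and chrX:142205291-142205410 (minus).
PRAME: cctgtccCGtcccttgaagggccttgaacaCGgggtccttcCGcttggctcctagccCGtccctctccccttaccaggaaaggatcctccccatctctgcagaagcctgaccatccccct
MAGEA3: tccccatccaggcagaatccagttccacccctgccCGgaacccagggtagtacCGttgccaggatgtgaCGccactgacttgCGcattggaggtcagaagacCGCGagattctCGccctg
MAGEA12: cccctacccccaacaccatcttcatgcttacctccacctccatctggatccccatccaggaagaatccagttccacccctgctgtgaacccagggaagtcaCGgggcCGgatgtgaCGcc
SSX1: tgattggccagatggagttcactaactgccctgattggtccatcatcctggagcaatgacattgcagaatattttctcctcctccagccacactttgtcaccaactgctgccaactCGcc
MAGEA4: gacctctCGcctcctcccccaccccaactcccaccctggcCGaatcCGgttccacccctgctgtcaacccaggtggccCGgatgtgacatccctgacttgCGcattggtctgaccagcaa
MAGEC2: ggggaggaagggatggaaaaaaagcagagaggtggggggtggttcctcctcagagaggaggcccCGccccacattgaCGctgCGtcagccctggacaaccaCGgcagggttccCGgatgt
The MAGEA6 stretch at chrX:152769717-152769836 (minus strand) has the same letters as that of MAGEA3, and the RefSeq promoters of this pair, 250 bases before to 50 after the start, were identical over all 300 bases. Between MAGEA3 and MAGEA12 the promoters aligned over 225 bases with 90.2% identity. CG dinucleotides numbered 19 in the MAGEA3 and MAGEA6 promoters, 13 at the outermost PRAME start and 5 at SSX1, against a median of 14 over 35116 promoters. The sequence CCGGAA or CCGGAT, searched on both strands because it holds the core of ETS factor sites, was present at the outermost start of 7 of the 8 members with a promoter in the table and absent from that of SSX1. It was present in 22.1% of all promoters. GGGCGG, the core of the GC box, was present in 45.0% of all promoters but, among these members, only at MAGEC1, MAGEC2 and inner starts of MAGEA4 and PRAME. TATAAA was present in 11.5% of all promoters and in no member's window. Detected and undetected members both held the ETS core letters, so their presence did not separate the groups. MAGEA1 and CTAG2 were not among the promoters matched.

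The files were first checked against the labels. APOBEC3B was 35.9 and 32.3 FPKM in 92.1 shCtrl and 1.98 and 2.37 FPKM in shA3B, and it was 2.67 and 2.19 FPKM in MEL290 NC and 28.4 and 27.5 FPKM in A3B OE. Both groups thus followed their labels, with log2 changes of -3.47 (SE 0.15, limma, adjusted p = 2.4e-06) and 3.08 (SE 0.12, adjusted p = 0.00078). The 12 melanocyte markers were all detected in every 92.1 library, where they summed to between 7264 and 8877 FPKM. In MEL290 they summed to between 15.3 and 20.7 FPKM. SOX10, the transcription factor that maintains the lineage, was 247 to 328 FPKM in 92.1 and was listed at 0 in 3 of 4 MEL290 libraries, and PMEL, a melanosome matrix protein, was 3777 to 4587 FPKM in 92.1 and 0.836 to 1.31 FPKM in MEL290. MEL290 cells thus lacked most defining melanocyte transcripts, and differences between the lines cover lineage as well as line, which cannot be told apart here. MITF, the master regulator of melanocytes, named here after its values were seen, was the exception at 13.7 to 19.6 FPKM in MEL290. The files hold no read counts. A rough depth, read from the smallest values of genes with a single annotated transcript, was 17600000 to 32000000 fragments per library, although for MEL290 NC replicate 1 a first, wider search gave 6000000. The fragment numbers given for 92.1 do not rest on that library.

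SSX1 was the member with the highest level. It reached 6.62 and 5.76 FPKM in the shCtrl libraries and 5.40 and 4.47 FPKM in the shA3B libraries, or roughly 184, 148, 152 and 146 fragments by GENCODE lengths. It was listed at 0 in all 4 MEL290 libraries. Its mean in shCtrl, 6.19 ± 0.613 FPKM (SD, n = 2), was near the middle of all detected symbols, at the 47.5 percentile. The SSX1 gene lies at chrX:48255392-48267444 on the plus strand (GRCh38, GENCODE release 44), and no 150-base window of its transcript was shared with another annotated gene.

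MAGEA6 and MAGEA3 followed. MAGEA6 was measured at 2.70 and 2.81 FPKM in shCtrl and 1.87 and 1.98 FPKM in shA3B. MAGEA3 was measured at 1.32 and 1.84 FPKM in shCtrl and 0.875 and 1.20 FPKM in shA3B. Both were listed at 0 in every MEL290 library. These genes face each other on opposite strands 70.9 kb apart (MAGEA3 at chrX:152698767-152702347, plus; MAGEA6 at chrX:152766136-152769716, minus), and their transcripts differ at 24 of 1682 bases. As 30.1% of the 150-base windows of either transcript occur in the other, the division of fragments between them is uncertain. Summed, the pair was 4.02 and 4.64 FPKM in shCtrl and 2.74 and 3.18 FPKM in shA3B, and these groups did not overlap.

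MAGEA12, which lies between them at chrX:152733757-152737669 on the plus strand, was far lower. It was 0.179 and 0.109 FPKM in shCtrl and 0.101 and 0.0849 FPKM in shA3B, or roughly 8, 4, 4 and 4 fragments. It overlaps the long noncoding RNA CSAG4, a gene not listed in the files. The transcripts of MAGEA12 and MAGEA3 were 91.8% identical, yet no 150-base window was shared.

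PRAME itself was barely detected. It was 0.169 and 0.0426 FPKM in the shCtrl libraries, roughly 10 and 2 fragments, and was listed at 0 in both shA3B and all 4 MEL290 libraries. The gene, at chr22:22547701-22559361 on the minus strand, overlaps an antisense long noncoding RNA. The kit was not described as one that marks strand, so reads of these genes cannot be told apart. Of the 15697 symbols detected in shCtrl, PRAME stood at the 13.4 percentile. At such a level neither a change with shA3B nor an absence from MEL290 can be resolved.

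MAGEA1, MAGEA4, MAGEC1, MAGEC2 and CTAG2, the last a close relative of the NY-ESO-1 antigen, were listed at 0 in all 8 libraries. For comparison, 2790 symbols (14%) were at 0 throughout, as were 24.6% of the 813 other X-linked symbols. Among 91 other X-linked cancer-testis antigens, 68 were at 0 in all libraries. By this count undetected genes made up 5 of 10 members and most of the wider class, a difference that was not tested. In 92.1 shCtrl the order was SSX1, MAGEA6, MAGEA3, MAGEA12 and PRAME, and the shA3B order was the same up to MAGEA12. SSX1, MAGEA6 and MAGEA3 did not overlap each other in either group, nor did MAGEA3 and MAGEA12, while the shCtrl values of MAGEA12 and PRAME overlapped.

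**Figure D1:**
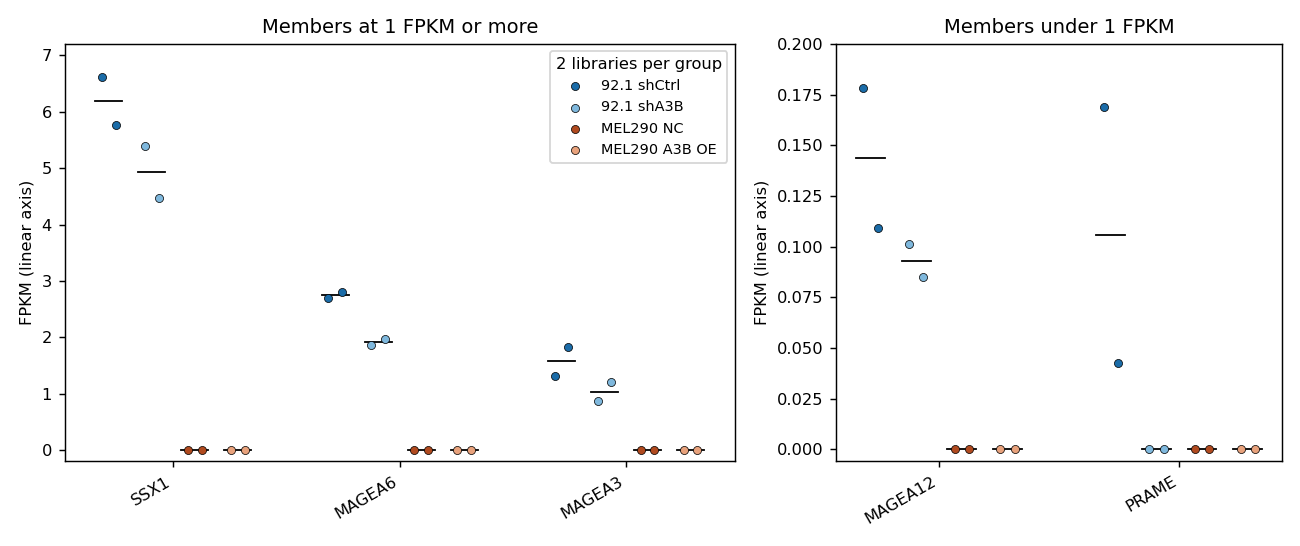
FPKM (linear axes, with separate scales) of the 5 detected members in each library, with 2 points per group and a line at the group mean. SSX1 is highest at 4.47 to 6.62 FPKM in 92.1, shA3B points lie below shCtrl points for each gene, and all MEL290 points are at 0.

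To ask whether depletion of A3B altered these antigens, shA3B was compared with shCtrl in 92.1. All 5 detected members were lower in both shA3B libraries than in both shCtrl libraries, but none of the 3 that could be tested passed the threshold. PRAME was detected only in shCtrl, so it could only come out lower, and MAGEA12 rested on roughly 8 fragments or fewer per library. By group means, SSX1 was 20.3% lower (4.94 ± 0.651 FPKM in shA3B, SD, n = 2), MAGEA6 30.2% lower (2.75 ± 0.0782 against 1.92 ± 0.0755 FPKM), MAGEA3 34.3% lower (1.58 ± 0.363 against 1.04 ± 0.230 FPKM) and MAGEA12 35.4% lower (0.144 ± 0.0490 against 0.0930 ± 0.0114 FPKM). Such a pattern, both shA3B below both shCtrl libraries, was found for 13.1% of the 16267 symbols detected in 92.1 and for 11.3% of those averaging 1 to 10 FPKM, the range of SSX1, MAGEA6 and MAGEA3. The opposite pattern was found for 15.0% and 19.8% of these symbols, respectively. Groups overlapped for MAGEA2, MAGEA2B, SSX4, SSX4B and SSX5, relatives of the members detected in every 92.1 library. MAGEA2 and MAGEA2B were at most 0.276 FPKM. The members were measured in the same 4 libraries and MAGEA3 and MAGEA6 share sequence, so their common direction is not 5 separate observations. In bulk RNA, fewer expressing cells and less RNA per cell cannot be told apart.

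In the limma fit on log2(FPKM + 1), a scale that understates changes of low genes, the change was -0.28 for SSX1 (SE 0.17, 95% interval -0.65 to 0.09), -0.36 for MAGEA6 (SE 0.18, interval -0.76 to 0.03) and -0.34 for MAGEA3 (SE 0.21, interval -0.80 to 0.13). The unadjusted p was 0.125, 0.0699 and 0.137, respectively, and the adjusted p was 0.9994 for each. The intervals include 0 and reach changes of -0.65 or below, so a lower level was neither shown nor bounded closely. Across all genes 1 of 11605 (0.00862%), APOBEC3B itself, was called, and 336 had an unadjusted p under 0.05. MAGEA12 and PRAME lay below the filter of 1 FPKM in at least 2 libraries. Fitted with no filter, MAGEA12 changed by -0.07 and PRAME by -0.14, each with adjusted p = 0.9875. For any member alone, an exact two-sided permutation test of 2 against 2 libraries cannot give a p below 0.33.

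**Figure D2:**
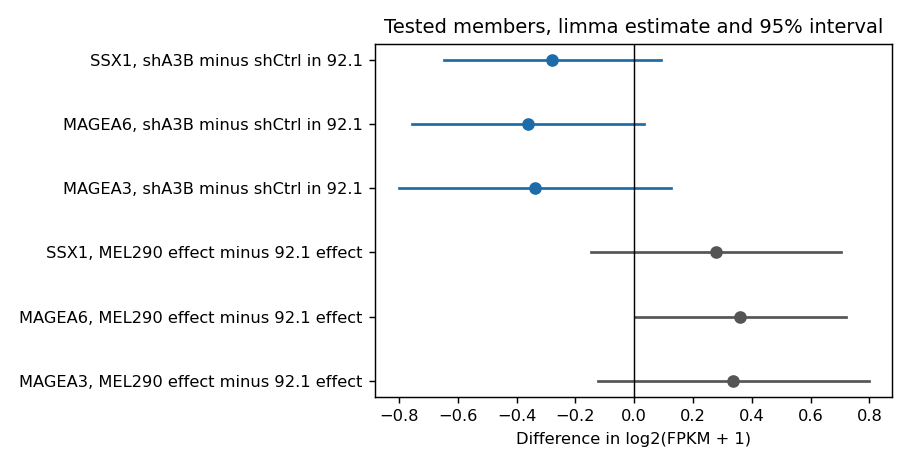
Differences in log2(FPKM + 1), with 95% limma intervals, for the 3 tested members: shA3B minus shCtrl in 92.1 (blue) and the MEL290 effect minus the 92.1 effect (gray). Blue estimates lie between -0.36 and -0.28 with intervals that include 0, and gray estimates mirror them because MEL290 values are 0. Those zeros have no spread, so gray intervals may be too narrow.

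Overexpression of A3B in MEL290 was not accompanied by detection of any member. All 10 were listed at 0 in the NC and A3B OE libraries, so none was tested, whereas 2065 of 11611 genes (17.8%) were called in this comparison. The SSX relatives of SSX1, and MAGEC3, were at 0 or low in MEL290, unlike 6 of the 11 type II MAGE genes described below. SSX4, SSX4B and SSX5 were detected in every 92.1 library, with SSX5 at 2.36 and 1.13 FPKM in shCtrl and 3.04 and 1.02 FPKM in shA3B, and all were listed at 0 throughout MEL290. SSX5 thus did not follow SSX1 below shCtrl in both shA3B libraries. MAGEC3, a relative of MAGEC1 and MAGEC2 named after its values were seen, showed the opposite pattern, with 0.0778 and 0.180 FPKM in MEL290 NC, 0.0873 and 0.107 FPKM in A3B OE and 0 in all 92.1 libraries.

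Between the control cells of both lines, the 3 tested members were all lower in MEL290 NC than in 92.1 shCtrl. The adjusted p was 2.8e-07 for SSX1, 1.1e-06 for MAGEA6 and 3.8e-05 for MAGEA3, and no fold is given against values of 0. Many genes separated the lines: 9509 of 12697 (74.9%) were called, 5088 of them (40.1%) lower in MEL290, so that a lower call was common. Members at 1 FPKM or more passed the filter only through 92.1, which leaves them no way to be higher in MEL290. Their MEL290 values of 0 have no spread, which lowers the spread pooled in this fit, so these p-values may be too small. Of all symbols, 1426 (7.15%) were detected in 92.1 and listed at 0 in every MEL290 library. With no filter, where 58.9% of all genes were called, MAGEA12 was also called (adjusted p = 0.0031) and PRAME was not (adjusted p = 0.059). Both were detected only in 92.1, at roughly 10 fragments or fewer, so they too could only be lower in MEL290.

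The change with A3B OE in MEL290 was set against the change with shA3B in 92.1 by their difference, which called no member. The differences were 0.28 for SSX1 (SE 0.18, adjusted p = 0.46), 0.36 for MAGEA6 (SE 0.16, unadjusted p = 0.049, adjusted p = 0.25) and 0.34 for MAGEA3 (SE 0.20, adjusted p = 0.41), with 559 of 12697 genes (4.4%) called. As the members were at 0 in MEL290, these differences are the 92.1 changes with the sign turned, and no response of a member in MEL290 was measured. Those zeros have no spread and lower the spread pooled in this fit, so the SE and p of members may be too small. For MAGEA6 the limma fit in 92.1 alone gave SE 0.18 and unadjusted p = 0.0699 for the same change. A3B was raised in MEL290 and lowered in 92.1, so the same difference with both changes taken as A3B higher minus lower was added after the data were seen. It called 707 of 12697 genes (5.57%), no member among them.

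The 3 genes whose pattern over the 8 libraries was most like that of SSX1, by root mean square difference of centered log2(FPKM + 1), were SLC2A4 (0.0851), CRACR2A (0.0870) and KLF13 (0.0963). SLC2A4, the insulin-responsive glucose transporter, was 5.57 and 5.92 FPKM in shCtrl, 5.33 and 4.84 FPKM in shA3B and at most 0.0234 FPKM in MEL290. CRACR2A, a regulator of calcium channels, was 5.10 to 6.45 FPKM in 92.1 and listed at 0 in MEL290. KLF13 was 16.9 to 22.2 FPKM in 92.1 and 1.88 to 2.19 FPKM in MEL290, so unlike SSX1 it was detected in every library there. All 3 genes share a large gap between lines with SSX1.

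Other cancer-testis antigens were examined next. No gene of the other X-linked list, with 2 tested, or of the autosomal list, with 12 tested, was called after A3B depletion, and the median changes were 0.02 and 0.14 beside 0.00 for all genes (7.58e-05 before rounding). In MEL290, A3B OE was accompanied by a rise in 9 of 11 tested autosomal cancer-testis antigens, with a median change of 0.85 beside 0.00412 for all genes, of which 10.3% were called higher. With no filter 5 of 26 were called, with a minimum log2 change of 1 only 4 of 11, and without either A3B OE library 6 of 11. NUF2, a kinetochore protein, rose from 6.49 and 6.35 FPKM to 17.0 and 21.7 FPKM (log2 change 1.45, SE 0.14, adjusted p = 0.0032). PBK, a mitotic kinase, rose from 9.88 and 8.84 FPKM to 19.7 and 24.4 FPKM, CEP55, which acts in cytokinesis, from 15.5 and 13.2 FPKM to 30.3 and 32.2 FPKM, and the kinetochore scaffold KNL1 from 4.56 and 4.84 FPKM to 9.84 and 13.6 FPKM. These members of the list are known as mitotic genes of dividing cells, unlike the 10 antigens. Between the lines, 13 of 14 autosomal antigens differed, 6 higher and 7 lower in MEL290. Of all genes, 74.9% were called there and 40.1% were called lower. The X-linked PLAC1, a placental gene, and SSX5 were lower (2 of 2), both having passed the filter only through 92.1, and PLAC1 was 0 and 2.65 FPKM in the MEL290 NC pair, and the RNA helicase DDX43 was 3.77 and 4.12 FPKM in MEL290 NC and listed at 0 throughout 92.1.

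**Figure D3:**
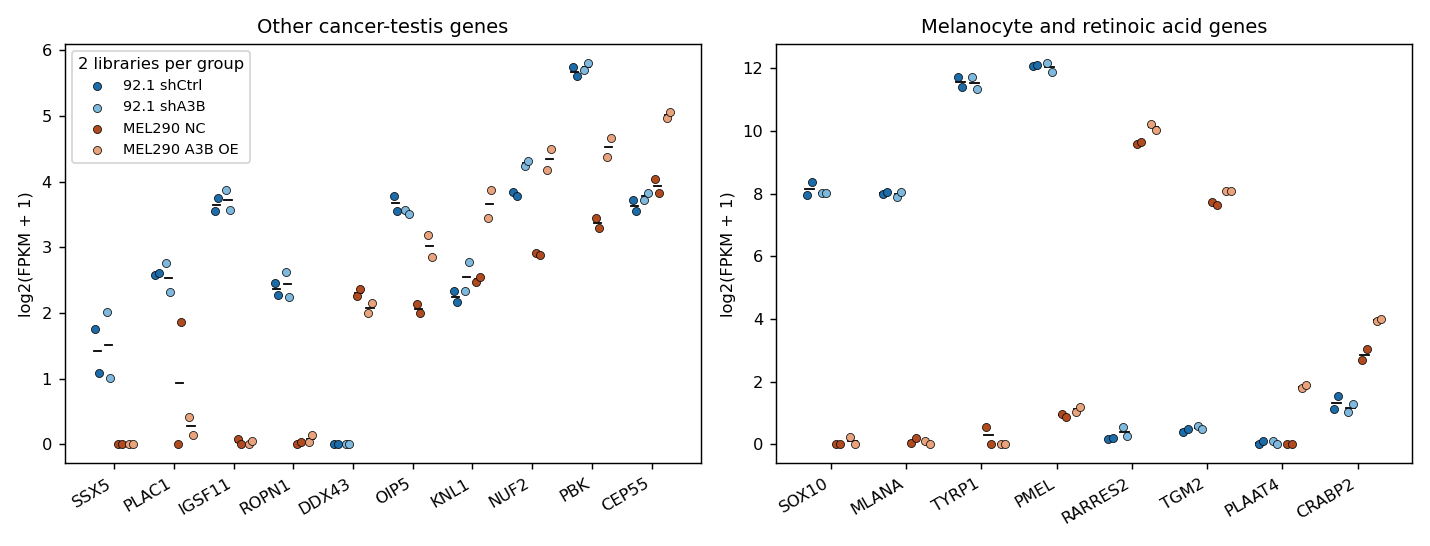
Levels as log2(FPKM + 1) in each library of other cancer-testis genes (left) and of melanocyte and retinoic acid genes (right), with 2 points per group and a line at the mean. Mitotic antigens such as NUF2 and PBK are higher in A3B OE than NC, and SOX10, MLANA, TYRP1 and PMEL separate 92.1 from MEL290.

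The widely expressed type II MAGE genes are relatives of the antigens that are active in normal tissues. Of 11 listed, 6 reached 1 FPKM in at least 2 libraries of both lines. NDN was 0.436 to 0.975 FPKM in 92.1 and was listed at 0 throughout MEL290. MAGEL2 was also at 0 throughout MEL290, and MAGEE2 was at 0 throughout 92.1. MAGED1 fell with A3B OE from 197 and 205 FPKM to 128 and 120 FPKM (log2 change -0.69, SE 0.07, adjusted p = 0.0035), and MAGED2 fell by 0.32 while MAGED4 rose by 0.73. Of all genes, 17.8% were called with A3B OE. In total 3 of 6 tested were called, with a median of -0.05 (1 of 6 without either A3B OE library, 2 with the replicate block and 0 with a minimum log2 change of 1), and after A3B depletion 0 of 7 were called, with a median of -0.09. MAGED4 and MAGED4B are near-identical copies, so their values are uncertain. Between the lines 5 of 7 differed (3 higher in MEL290, median 0.13), near the 74.9% of all genes, with the largest difference in MAGED1, which was 36.1 and 32.6 FPKM in 92.1 shCtrl.

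Of 11 ubiquitin ligase partners through which PRAME and MAGE proteins act, 9 were among the symbols listed and 1 was at 0 in all 8 libraries. The other 8 were expressed in both lines even where the antigens were not. TRIM28, the partner of MAGEA3, MAGEA6 and MAGEC2, was 291 and 335 FPKM in 92.1 shCtrl and 255 and 245 FPKM in MEL290 NC. With A3B OE it rose to 388 and 342 FPKM (log2 change 0.54, SE 0.08, adjusted p = 0.0094). It was the only call among 8 partners (median 0.10), beside 17.8% of all genes, and was lost with no filter and with a minimum log2 change of 1. CUL2, the scaffold of the PRAME ligase, was 9.0 and 7.32 FPKM in 92.1 shCtrl and 16.9 and 16.1 FPKM in MEL290 NC. All 8 differed between the lines, where 74.9% of all genes did (3 higher and 5 lower in MEL290, median -0.51, with 5 to 8 called without 1 library), and 0 of 8 were called after A3B depletion (median 0.04).

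Retinoic acid receptors and their targets, the pathway PRAME has been described to repress, differed between lines at 11 of 15 genes, 7 higher and 4 lower in MEL290 NC (median 0.53), a share near the 74.9% of all genes. RARRES2, the gene of the adipokine chemerin, was 0.130 and 0.139 FPKM in 92.1 shCtrl and 770 and 799 FPKM in MEL290 NC. With A3B OE 5 of 14 rose (median 0.35), beside 10.3% of all genes (3 of 12 without A3B OE replicate 2 and 2 of 14 with a minimum log2 change of 1), among them the retinoic acid binding protein CRABP2, from 5.45 and 7.17 FPKM to 14.3 and 15.0 FPKM, and PLAAT4, from 0 in both libraries to 2.50 and 2.68 FPKM. None of 8 was called in 92.1 (median 0.03).

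Repressors that keep germline genes silent were also measured. In MEL290 NC 19 of 27 were lower and 4 higher than in 92.1 shCtrl (median -0.70 beside -0.075 for all genes, of which 40.1% were lower). The maintenance methyltransferase DNMT1 was 57.6 and 63.5 FPKM in 92.1 shCtrl and 25.5 and 24.7 FPKM in MEL290 NC, its cofactor UHRF1 57.1 and 54.2 against 15.4 and 13.2 FPKM, and the PRC1.6 subunit E2F6 26.0 and 22.5 against 6.23 and 5.97 FPKM. Most of these repressors had higher transcript levels in 92.1, the line with detected antigens, and any bearing on the antigens was not tested. With A3B OE 7 of 26 rose (median 0.19), beside 10.3% of all genes, including EZH2 by 0.79. Only 2 of 27 were called with no filter, 1 of 26 without A3B OE replicate 1, 4 without replicate 2 and 0 with a minimum log2 change of 1, and in 92.1 none of 27 was called after A3B depletion (median 0.0045).

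Markers of other cells were checked beside these levels. Of the 21 germ cell and testis markers, 10 were at 0 in every library. The 21 summed to 5.34 to 7.54 FPKM in 92.1 and 4.93 to 6.24 FPKM in MEL290, with AMH alone at 2.80 to 3.86 FPKM. In MEL290 NC 2 of 3 tested were lower (median -0.72), beside 40.1% of all genes. None was called in either A3B comparison (medians -0.05 in 92.1 and -0.04 in MEL290). The difference of A3B effects called DND1 (0.97, SE 0.22, limma, adjusted p = 0.049), beside 4.4% of all genes. This call was lost in some alternatives. DND1 was 1.01 and 1.21 FPKM in shCtrl and 0.392 and 0.346 FPKM in shA3B. Markers of epithelial, fibroblast, endothelial, immune and retinal pigment cells summed to 33.2 to 51.9 FPKM in 92.1 and 849 to 1369 FPKM in MEL290. Nearly all of the MEL290 sum was KRT18, an epithelial keratin that fell with A3B OE from 1251 and 1298 to 849 and 770 FPKM. It was the only call of 4 (median 0.11), beside 17.8% of all genes. The epithelial markers EPCAM and CDH1 were at most 0.0704 and 2.14 FPKM in MEL290. COL1A1 was 26.9 to 40.7 FPKM there, PDGFRB 16.4 to 19.9 FPKM and CD68 26.1 to 31.6 FPKM. Other fibroblast markers were low there, with COL1A2 at most 0.260, DCN at most 0.153 and LUM at most 0.126 FPKM. The immune markers PTPRC and CD14 were at most 0.475 and 0.251 FPKM there. In 92.1, CD68 was 14.5 to 35.0 FPKM and LUM 3.58 to 5.03 FPKM. In 92.1 none of 6 was called (median 0.10), and between lines 6 of 7 were (median 0.27), beside 74.9% of all genes. No melanocyte marker was called in 92.1 (0 of 12, median -0.03) or in MEL290 with A3B OE (0 of 2, median 0.12). Between the lines 12 of 12 were lower in MEL290 NC (median -5.75), beside 40.1% of all genes. Their part in the member levels was not tested.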

How the data were processed

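RNA was extracted with Trizol, libraries were made with a NEBNext Ultra kit, and the authors aligned reads to GRCh38 with STAR and computed FPKM with Cufflinks. FPKM per symbol was deposited, 1 file per library, with no counts. The annotation behind it is uncertain, as symbols are newer than the release stated, which bears on zeros, shared windows and rough fragment numbers. Genes at 1 FPKM or more in at least 2 fitted libraries were tested on log2(FPKM + 1) with limma 3.58.1 (trend, R 4.3.3) and Benjamini-Hochberg adjustment over all genes tested, with a threshold of 0.05. Each A3B comparison was fitted within its line (4 libraries); the others used all 8. The scripts were tested on simulated data. The members and gene lists were chosen with earlier results of these data known. Named were all members, per list up to 4 called genes with the largest change and up to 4 with the highest mean, the 3 genes nearest SSX1, and some of the expressed neighbors within 500 kb, picked after their values were seen. GENCODE release 44 gave coordinates, with 19033 symbols matched. Rough fragment numbers take 200 bases off each transcript. Alternatives changed the filter, pseudocount, scaling, model, replicate block and libraries.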

Additional observations from a re-analysis of the deposited data

Results flagged for a closer look

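The members gave no measured response to A3B in MEL290, so whether their response differs between the lines cannot be told. Among the other genes of the lists, 9 of 94, beside 5.57% of all genes, had different changes in the lines by a limma test in which both changes are taken as A3B higher minus A3B lower, on the log2(FPKM + 1) scale. This orientation was added after the data were seen. On it APOBEC3B itself differed by -0.39 (adjusted p = 0.27). In what follows the 92.1 value is the change with shA3B, where A3B is lower. For the mitotic antigens the difference was 1.92 for NUF2 (1.45 with A3B OE and 0.47 with shA3B, adjusted p = 0.0033), 1.45 for KNL1 (1.14 and 0.30, adjusted p = 0.024), 1.22 for PBK (1.15 and 0.07, adjusted p = 0.013) and 1.22 for CEP55 (1.07 and 0.15, adjusted p = 0.011). ATAD2, also of the autosomal list, differed by 1.05 (0.85 and 0.20, adjusted p = 0.013). EZH2 differed by 0.76 (0.79 and -0.03, adjusted p = 0.031) and MAGED1 by -0.79 (-0.69 and -0.09, adjusted p = 0.035). The retinoic acid genes PLAAT4 and RARRES2 differed by 1.83 (adjusted p = 0.0028) and 0.73 (adjusted p = 0.046), and both were too low to test within 92.1. None of these 92.1 changes passed the test within that line. The count fell to 7 with no filter, 6 with the replicate block, 5 without shCtrl replicate 2 or shA3B replicate 2, 6 without NC replicate 1, 3 without NC replicate 2, and, leaving out an A3B OE library, to 3 (replicate 1) or 1 (replicate 2). The lines also differ in how A3B was changed, which cannot be told apart from the line.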

How the results depend on the processing

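The direction and the call of SSX1, MAGEA6 and MAGEA3 were the same in each comparison under each alternative that could be fitted, 13 to 17 per gene and comparison. In 92.1 the direction could not turn when 1 library was left out, because both shA3B libraries lay below both shCtrl libraries. Between the lines the MEL290 values of 0 fixed it. The difference of A3B effects only repeats the 92.1 change with the sign turned. The agreement in direction is therefore no added evidence. After A3B depletion 0 members were called under any of them, with adjusted p between 0.66 and 1.0 and changes of -0.48 to -0.17 when 1 library was left out. With 1 FPKM required in every library no member could be tested between the lines. Member order did not change when FPKM were scaled to a common sum. Genes called in 92.1 numbered 37 with the replicate block, 2 without the trend, 2 with a filter of 0.1 FPKM, 0 with no filter (556 at unadjusted p under 0.05) and 2 to 9 without 1 library (9 without either shA3B library, 6 without shCtrl replicate 2 and 2 without shCtrl replicate 1). In MEL290 they numbered 915 with no filter, 314 with a minimum log2 change of 1 and 809 to 1979 without 1 library (888 without A3B OE replicate 1 and 809 without replicate 2). Of the list genes, 25 were called there, with 16 at no filter, 6 with the minimum change and 13 to 25 without 1 library (13 without A3B OE replicate 1 and 16 without replicate 2). Between the lines 5008 were called with a minimum log2 change of 1, and list genes numbered 51 with it and 50 with 1 FPKM in every library. For the difference of A3B effects the counts were 328 with 1 FPKM in every library, 287 with the minimum change, 223 with the replicate block, and 36 to 286 without 1 library (36 without A3B OE replicate 1). The 12 list genes of that comparison fell to 6 with no filter, 4 with the minimum change, 3 with the replicate block and 0 to 5 without 1 library (0 without either A3B OE library). Leaving out any library lowered the count of all genes from 559 by more than 1.5 times. List counts under settings other than filter, pseudocount and upper quartile scaling were added after the data were seen. Where these counts move, the cause was not tested.

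Same-numbered libraries deviated together with correlations of 0.19 in 92.1 and -0.03 in MEL290, so the numbers were not shown to pair the libraries. With the replicate block, 37 genes were called in 92.1, none of them a member.

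The first search for the rough depth, from about 5000000 fragments, gave 6000000 for MEL290 NC replicate 1 and the same values for the other 7 libraries. The limit of 10000000 was set after that value was seen. Depth limits PRAME and MAGEA12, at roughly 10 fragments or fewer.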

Other observations

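Genes near the members were measured in both lines. Around MAGEA3, MAGEA12 and MAGEA6, within 500 kb, CETN2, a centrin of the centrosome, was 15.0 to 16.7 FPKM in 92.1 and 30.6 to 37.4 FPKM in MEL290, and the sterol enzyme NSDHL was 13.8 to 17.1 FPKM in 92.1 and 13.4 to 17.2 FPKM in MEL290. ZNF185 was higher in MEL290 (32.5 to 39.4 FPKM) than in 92.1 (2.37 to 3.89 FPKM), and PNMA6A was lower (0.327 to 0.869 against 9.62 to 11.3 FPKM). The region thus held genes detected in both lines while the MAGE genes were listed at 0 in MEL290. Near MAGEA1, itself at 0 throughout, the phosphatase DUSP9 was 33.9 to 43.7 FPKM and the proteoglycan BGN 11.4 to 16.3 FPKM in 92.1, and both were at or near 0 in MEL290. GABRE, 62.2 kb from MAGEA4, was listed at 0 in 92.1 and was 8.89 to 16.0 FPKM in MEL290. Near SSX1, where 11 of 18 listed neighbors reached 1 FPKM in at least 2 libraries, the amino acid transporter SLC38A5 was 95.8 to 114 FPKM in MEL290 and at most 0.0672 FPKM in 92.1. Of 5 listed neighbors of PRAME, ZNF280B alone reached 1 FPKM in at least 2 libraries. MAGEC1 and MAGEC2 had none that did, and CTAG2 had 22 of 32, from the ribosomal gene RPL10 at 2334 to 2997 FPKM down to MTCP1 at 0.616 to 1.36 FPKM.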
